A study of Homo sapiens with 12 samples.

Results

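Cancer-testis antigen genes are germline genes that most somatic tissues keep silent and that many tumours transcribe. The 38 listed here were taken from a table of 60648 genes by symbol, after Ensembl identifiers had been matched to symbols, and all 38 were found. They are 26 genes on chromosome X, most of them from the MAGE, PAGE, XAGE, SSX, CTAG, CT45 and SPANX families, and 12 genes on autosomes. The rule lists the genes by name and applies no threshold to these data, although the list was drawn up with earlier results of the same data known. Transcript counts were read gene by gene in HCT116 cells, a human colon carcinoma line, that were wild type (WT) for MTHFD2 or carried a knock-out (KO) of it. MTHFD2 is a mitochondrial folate enzyme that helps supply one-carbon units. Each genotype was harvested at an initial time, for the KO directly after it had been made with CRISPR-Cas9, and at a final time after 2 months of culture. The 4 groups are therefore WT initial, WT final, KO initial and KO final, with 3 libraries in each. All groups share the parental line, and the labels name no other treatment. The KO is an isolated clone, so loss of MTHFD2 and other properties of that clone cannot be told apart, and p-values compare biological replicates of 1 clone with those of the WT culture.

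In somatic cells many of these genes are held silent by methylation of cytosines in CpG pairs at their promoters, and several autosomal ones also by the PRC1.6 complex, which binds E-box and E2F motifs. Colon carcinoma cells that lose DNA methylation are known to switch on members of the MAGE family. Methyl groups for DNA come from S-adenosylmethionine, which depends on the methionine cycle and so on one-carbon metabolism. Counts of RNA show whether a gene was transcribed and not how its promoter was methylated, which was not measured.

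Library totals lay between 38597809 and 40017561 counts, so 3 counts corresponded to between 0.0733 and 0.0814 CPM (counts relative to the library total, scaled with TMM factors) in a library. A gene with 3 counts or fewer in each of the 12 libraries is called at the floor. MTHFD2 was lower in the KO at both harvests, with 11742 to 18478 counts in the WT libraries and 4814 to 6175 in the KO libraries. Its log2 fold change was -1.59 at the start and -1.38 after the culture. Of 12 colon epithelium markers, KRT8, KRT18, KRT19 and EPCAM were abundant, whereas CDX1 was at the floor and LGALS4 and CEACAM5 reached at most 6 and 5 counts in a library. Their summed level was 2624 to 3233 CPM in WT initial, 3062 to 3203 in WT final, 2466 to 2706 in KO initial and 2214 to 2589 in KO final, and of 8 tested markers 2 were lower in the KO at the start, beside 11.3% of all tested genes, and 5 after the culture, beside 10.2%. Of 12 germ cell and pluripotency markers, 7 were at the floor, PRM1, PRM2, TNP1, UTF1 and ZPBP at 0, and 5 exceeded it. The summed level of the 12 ran from 13.8 CPM in a KO initial library to 20.9 in a WT final one. The part of these marker differences in the results on cancer-testis genes was not tested. Of 6 leukocyte markers, CD3E was at 0 and PTPRC reached at most 2 counts, while 4 exceeded the floor. Of 6 fibroblast markers, DCN and LUM were at 0, while 3 exceeded the floor. The summed fibroblast level was 56.8 to 69.9 CPM in WT initial, 60.2 to 78.8 in WT final, 37.5 to 48.2 in KO initial and 43.4 to 59.3 in KO final. Of 4 endothelium markers, 3 exceeded the floor. The leukocyte markers summed to at most 2.5 CPM in a library and the endothelium markers to at most 3.46.

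Most of the 38 genes had few or no counts, and a few were highly transcribed. At the floor were 25 genes, 14 of them with 0 counts in all 12 libraries and 11 with 1 to 19 counts in all. For 6 of the 25, named further on, near-identical copies limit what a low count shows. MAGEB2, MAGEA3 and PRAME carried 72.9%, 22.1% and 3.09% of the 106404 counts that the 38 genes had in all. None of the 9 genes with enough counts to be tested was called higher in the KO. Of all tested genes, 8.55% were called higher at the initial harvest and 8.38% at the final one. With 9 genes, a count of 0 is near that share. MAGEB1 was detected in all 6 WT libraries and had 0 or 1 count in all 6 KO libraries, and TEX14 was lower in the KO at the final harvest. Of the 13 genes above the floor, 10 exceeded 3 counts in a library of each genotype. MAGEB1 and BRDT did so only in the WT, BRDT with 4 counts in 1 library, and PAGE2 only in the KO, with 6 and 4 counts in 1 library each.

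The promoters of 4 of these genes are shown, because they hold the sharpest contrasts in level: MAGEB2 and MAGEB1 are neighbours on chromosome X with unlike counts in the KO, and MAGEA3 and MAGEA6 have the same promoter letters and unlike counts in every library. The sequences run 5′ to 3′ upstream of the annotated start on the GRCh38.p14 assembly, from RefSeq, and hold no base that the deposited table counts as an exon of the gene. The second MAGEB1 start lies inside the gene, so the sequence before it comes after the first exon. The sequence before the first MAGEB1 start lies inside another gene, MAGEB4 (chromosome X, 30242000 to 30244187, same strand). The 2188 exon bases of MAGEB4 fill its whole span, so this sequence is MAGEB4 exon. Capitals mark CpG pairs.

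MAGEB2, chrX:30215313-30215562, plus strand: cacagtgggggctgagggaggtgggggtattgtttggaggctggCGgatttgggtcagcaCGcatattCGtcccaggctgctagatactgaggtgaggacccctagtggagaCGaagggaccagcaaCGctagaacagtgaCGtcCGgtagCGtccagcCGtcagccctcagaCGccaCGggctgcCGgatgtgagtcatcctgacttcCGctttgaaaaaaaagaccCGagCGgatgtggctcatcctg

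MAGEB1 first start, chrX:30243481-30243714, plus strand: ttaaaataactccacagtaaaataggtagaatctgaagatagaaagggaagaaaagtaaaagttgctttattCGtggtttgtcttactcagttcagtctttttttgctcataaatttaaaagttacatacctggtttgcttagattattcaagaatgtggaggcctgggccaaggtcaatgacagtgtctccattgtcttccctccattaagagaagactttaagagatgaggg

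MAGEB1 second start, chrX:30246896-30247145, plus strand: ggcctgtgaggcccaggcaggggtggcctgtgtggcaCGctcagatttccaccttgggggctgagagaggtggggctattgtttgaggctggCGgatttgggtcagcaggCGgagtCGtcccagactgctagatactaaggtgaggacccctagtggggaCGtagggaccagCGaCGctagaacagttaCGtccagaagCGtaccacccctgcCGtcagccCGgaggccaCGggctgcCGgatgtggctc

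MAGEA3, chrX:152698544-152698735, plus strand, and, with the same letters, MAGEA6, chrX:152769748-152769939, minus strand: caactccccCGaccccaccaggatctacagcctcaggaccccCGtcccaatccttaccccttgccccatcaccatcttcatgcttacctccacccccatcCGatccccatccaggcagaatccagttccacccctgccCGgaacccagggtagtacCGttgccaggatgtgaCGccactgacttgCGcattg

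MAGEB2 has 15 CpG pairs in its 250 bases. MAGEB1 has 1 CpG pair in the 234 bases before its first start and 13 in the 250 bases before its second. In a local alignment, the 300-base window around the second MAGEB1 start matched the MAGEB2 window at 202 of 238 aligned positions (84.9%), whereas the window around the first start aligned over only 33 positions. The full 300-base windows of MAGEA3 and MAGEA6 matched at 300 of 300 positions.

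The MAGE-A proteins bind E3 ubiquitin ligases and alter which proteins these mark. Of the 9 MAGE-A genes, MAGEA2, MAGEA4 and MAGEA10 had 0 counts in every library. MAGEA1, MAGEA6, MAGEA11 and MAGEA12 had 1, 4, 7 and 19 counts over all 12 libraries and were at the floor. Only MAGEA3 and MAGEA8 exceeded it.

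MAGEA3 (ENSG00000221867.9, chromosome X, 152698767 to 152702347), whose protein binds the ligase TRIM28, was the second most abundant of the 38 genes per kilobase of exon, at 28.0 CPM per kb over all libraries. Its counts were 1738, 2205 and 1851 in WT initial, 1675, 1920 and 1962 in WT final, 2070, 2257 and 2180 in KO initial, and 2033, 1546 and 2076 in KO final. The KO ranges overlapped those of the WT at both harvests. The group means were 47.8 ± 6.15, 48.8 ± 2.87, 54.8 ± 2.29 and 47.6 ± 7.07 CPM in the same order (SD, n = 3). The KO-to-WT ratio was 1.15 at the initial harvest (95% interval 0.976 to 1.35) and 0.976 at the final harvest (0.83 to 1.15), and neither passed edgeR's quasi-likelihood test.

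MAGEA6 (ENSG00000197172.10, chromosome X, 152766136 to 152769747), with the promoter letters of MAGEA3, had 1 count in WT initial replicate 1, in KO initial replicates 1 and 2 and in KO final replicate 2, and 0 elsewhere. MAGEA3 had 23513 counts over the same libraries. The transcripts of the pair resemble each other: 54.9% of the distinct 50-base words of MAGEA3 transcripts in GENCODE 29 also occur in MAGEA6, and 46.1% of the words of MAGEA6 occur in no other gene. How reads that map to several places were counted is not given in the sources used here. If such reads were left out, the level of each gene rests on the words it does not share.

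MAGEA8 (ENSG00000156009.10, chromosome X, 149881141 to 149885835) was at the edge of detection. It had 7, 3 and 5 counts in WT initial, 5, 4 and 7 in WT final, 11, 14 and 10 in KO initial, and 4, 13 and 7 in KO final. All 3 KO initial libraries lay above all 3 WT initial libraries, and the KO final libraries overlapped the WT final ones. The log2 fold change at the initial harvest was 1.23 (SE 0.449), and the gene was not called (adjusted p 0.0656, Benjamini-Hochberg over 18289 genes). At the final harvest it was 0.52 (SE 0.477, adjusted p 0.523). Only KO libraries held enough counts of MAGEA8 for the gene to be tested, so its adjusted p values are no support beyond the counts. Without KO final replicate 2, which enters the shared estimate of the spread, the adjusted p at the initial harvest was 0.0442, and over all alternatives it ran from 0.0442 to 0.205.

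MAGE-B and MAGE-C genes encode further proteins with the MAGE homology domain. MAGEC1 had 0 counts and MAGEC2 had 2 counts in all, both of them in KO final replicate 2. MAGEB2 and MAGEB1 exceeded the floor.

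MAGEB2 (ENSG00000099399.6, chromosome X, 30215563 to 30220089) was the most abundant of the 38 genes, at 102.1 CPM per kb. It had 5351, 7578 and 6135 counts in WT initial, 5688, 6761 and 7093 in WT final, 6169, 7282 and 6808 in KO initial, and 6619, 5277 and 6795 in KO final. The 4 groups overlapped, with means of 157 ± 28.5, 171 ± 15.2, 171 ± 13.7 and 157 ± 19.7 CPM (SD, n = 3). The KO-to-WT ratio was 1.09 (95% interval 0.905 to 1.30) at the initial harvest and 0.918 (0.765 to 1.1) at the final one. Neither ratio passed the test.

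MAGEB1 (ENSG00000214107.9, chromosome X, 30243715 to 30252040) begins 23625 bases beyond the end of MAGEB2, on the same strand. Its counts were 12, 17 and 19 in WT initial, 8, 12 and 13 in WT final, 0, 0 and 0 in KO initial, and 1, 0 and 1 in KO final. All 6 WT libraries lay above all 6 KO libraries, with 81 counts against 2. The group means were 0.396 ± 0.0936 and 0.289 ± 0.0631 CPM in WT initial and WT final, 0 in KO initial and 0.0168 ± 0.0145 CPM in KO final (SD, n = 3).

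At the initial harvest MAGEB1 had 48 counts in the WT group and 0 in the KO group (adjusted p 3.97e-05, edgeR's quasi-likelihood test). The exact counting interval put the level in the KO at least 12.25-fold lower. A floor of 3 counts over the whole KO group in place of its 0 gave 15.7-fold. At the final harvest there were 33 counts in the WT and 2 in the KO, which is a 17.2-fold lower level with an exact counting interval of 4.4 to 148. The fitted log2 fold change at the final harvest was -3.87 (SE 0.645, adjusted p 0.00064). Leaving out any 1 library kept both calls, with adjusted p from 2.26e-05 to 0.000296 at the initial harvest and from 0.000409 to 0.00369 at the final one. Only WT libraries, where MAGEB1 was high, held enough counts for the gene to be tested. These adjusted p values are therefore no support beyond the counts themselves.

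Only 1.32% of the 50-base words of MAGEB1 occur in another gene. MAGEB4, which overlaps it on the same strand over 4.41% of its exon bases, had 0 counts in every library. Of 6 genes beginning within 100 kb of MAGEB1, only MAGEB2 had enough counts to be tested, and it was not called. MAGEB3, between MAGEB2 and MAGEB1, had 19, 3 and 5 counts in WT initial, 4, 1 and 7 in WT final, 9, 7 and 8 in KO initial, and 13, 7 and 3 in KO final. MAGEB3 did not pass the filter, and its counts overlapped between genotypes at both harvests.

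**Figure D1:**
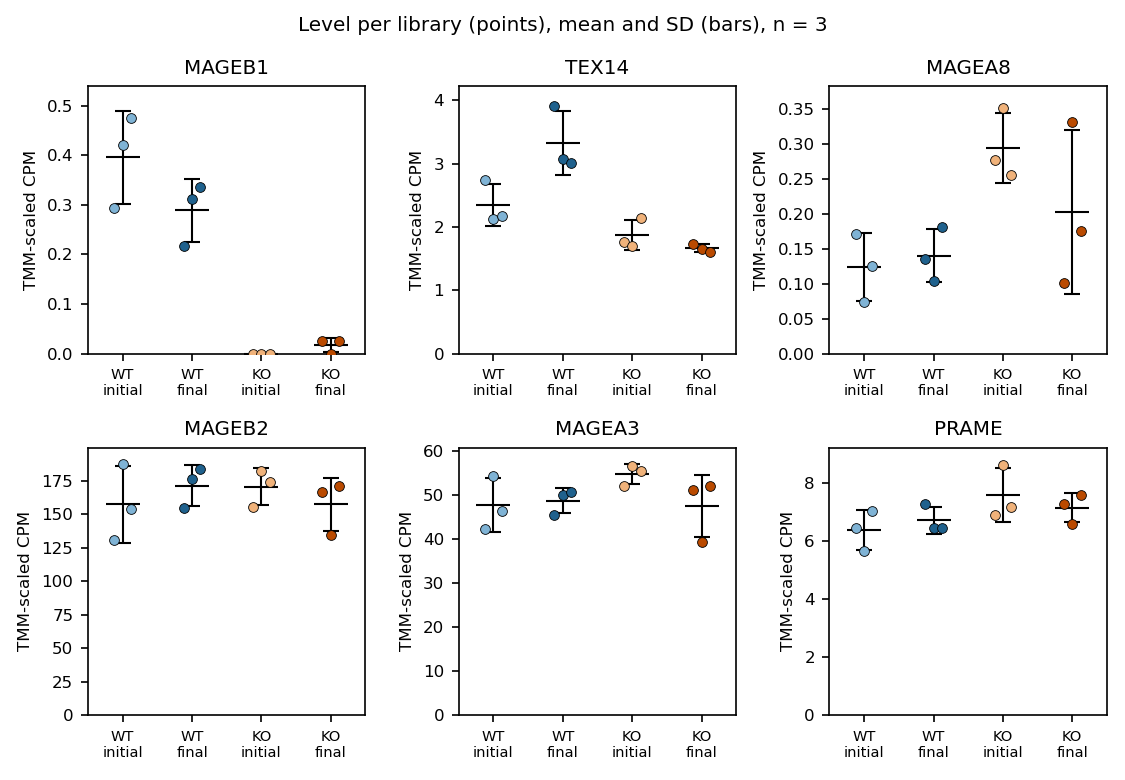
TMM-scaled CPM of MAGEB1, TEX14, MAGEA8, MAGEB2, MAGEA3 and PRAME in each library (points) by group, with the mean and SD of 3 libraries (bars). MAGEB1 separates the genotypes at both harvests and TEX14 at the final harvest, while the points of MAGEB2, MAGEA3 and PRAME overlap between genotypes.

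The PAGE, XAGE, CT45, CT83, SSX, CTAG and SPANX genes are short X-linked genes, many of them in families of near-identical copies. Of 13 such genes, 11 were at the floor. PAGE1, PAGE5, XAGE1B, CT83, SSX2, SSX4, CTAG1B and SPANXB1 had 0 counts, and CTAG2, XAGE2 and CT45A1 had 1, 3 and 9 in all. SSX1, a transcriptional repressor that is fused to SS18 in synovial sarcoma, had 2 to 7 counts in every library, with 0.102 CPM per kb. PAGE2 had 0 to 3 counts in the WT libraries and 0 to 6 in the KO libraries. Neither had enough counts for the filter, and neither was called in a fit without it.

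A count of 0 does not carry the same weight for each gene. Of the 25 genes at the floor, 6 have under 25% of 50-base words to themselves: SSX2 and SSX4 with none, MAGEA2 with 3.62%, CTAG1B with 10.1%, CT45A1 with 16.3% and XAGE1B with 23.7%. If reads that map to several places were left out of the counting, these 6 would show few counts whether transcribed or not. The other 19 have a median of 99.3% unique words, and the lowest is MAGEA6.

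The transcription and chromatin factors were PRAME, BRDT, CTCFL and DPPA2. PRAME (ENSG00000185686.18, chromosome 22, 22547701 to 22559361), a leucine-rich repeat protein that represses retinoic acid receptor signalling, came next after MAGEA3 in level, at 1.83 CPM per kb. Its counts were 264, 229 and 281 in WT initial, 267, 247 and 249 in WT final, 273, 344 and 281 in KO initial, and 289, 258 and 301 in KO final. WT and KO libraries overlapped at both harvests. The KO-to-WT ratio was 1.19 (95% interval 0.992 to 1.42) at the initial harvest and 1.06 (0.89 to 1.27) at the final one, neither of them called. BRDT, a testis bromodomain protein that binds acetylated histones, had 1, 9, 4 and 2 counts over the 3 libraries of WT initial, WT final, KO initial and KO final. CTCFL, a paralog of the insulator protein CTCF, had 13 counts in all and at most 3 in a library, and DPPA2 had 5.

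The germ-cell RNA proteins were DAZL, DDX4, STK31 and TEX15. DAZL, an RNA-binding translation regulator, and TEX15, which acts in meiotic recombination and piRNA-directed silencing, had 0 counts in all 12 libraries. DDX4, the VASA helicase, had 0 to 7 counts in a library, with all groups overlapping. STK31, a Tudor-domain protein with a kinase-like domain, had 3 to 12 counts. Its KO-to-WT ratio was 0.827 (95% interval 0.428 to 1.6) at the initial harvest and 1.41 (0.69 to 2.86) at the final one. These counts do not tell apart ratios within the bounds.

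The last 4 genes act on meiotic chromosomes and in germ cell division. SYCP1, of the synaptonemal complex, was at the floor with 2 counts. SYCP3, of its lateral element, had 13, 4 and 10 counts in WT initial, 7, 12 and 10 in WT final, 8, 7 and 10 in KO initial, and 11, 8 and 7 in KO final. Its groups overlapped, with a KO-to-WT ratio of 0.948 (95% interval 0.515 to 1.74) at the initial harvest and 0.862 (0.474 to 1.57) at the final one. SYCE2, of its central element, had 30, 27 and 51 counts in WT initial, 30, 28 and 21 in WT final, 43, 37 and 33 in KO initial, and 20, 42 and 20 in KO final. The SYCE2 groups overlapped at both harvests, and its KO-to-WT ratio was 1.07 (95% interval 0.687 to 1.66) and 0.995 (0.613 to 1.62). GCDH on the other strand overlaps 23.9% of the exon bases of SYCE2 and CHPT1 overlaps 14.8% of those of SYCP3, and whether the counting used strand is not given in the sources used here.

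TEX14 (ENSG00000121101.16, chromosome 17, 58556678 to 58692055, minus strand), which keeps the intercellular bridges between dividing germ cells open, was at 0.433 CPM per kb, next below SYCE2 at 0.548. Its counts were 112, 86 and 87 in WT initial, 144, 118 and 116 in WT final, 70, 68 and 84 in KO initial, and 69, 65 and 64 in KO final. All KO final libraries lay below all WT final libraries, while in CPM the highest KO initial library, at 2.14, reached above the lowest WT initial one, at 2.13. The means were 2.35 ± 0.338, 3.33 ± 0.504, 1.87 ± 0.238 and 1.67 ± 0.0647 CPM in the order of the groups (SD, n = 3).

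At the final harvest TEX14 was lower in the KO by a log2 fold change of -0.99 (SE 0.162, adjusted p 0.000331), a ratio of 0.502 (95% interval 0.395 to 0.637). At the initial harvest the log2 fold change was -0.33 (SE 0.164, adjusted p 0.186). The test of the difference between these, the interaction of genotype and harvest, gave -0.67 (SE 0.231, unadjusted p 0.0108, adjusted p 0.219), so the genotype difference was not shown to change. All 3 WT final libraries lay above all 3 WT initial libraries, with a log2 change of 0.50 (SE 0.156, adjusted p 0.069) that was not called. Without WT initial replicate 1, the highest of its group, the change was 0.63 with an adjusted p of 0.0407. In the KO the change over time was -0.17 (SE 0.171, adjusted p 0.705).

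TEX14 overlaps 5 genes on its strand and 2 on the other over 6.01% of its exon bases. Among genes beginning within 100 kb of it, PPM1E, a protein phosphatase, was higher in the KO at the final harvest (0.77, SE 0.241, adjusted p 0.0345). MTMR4 at 0.12 and SEPTIN4 at -0.18, as well as RAD51C and SEPTIN4-AS1, were not called at either harvest.

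**Figure D2:**
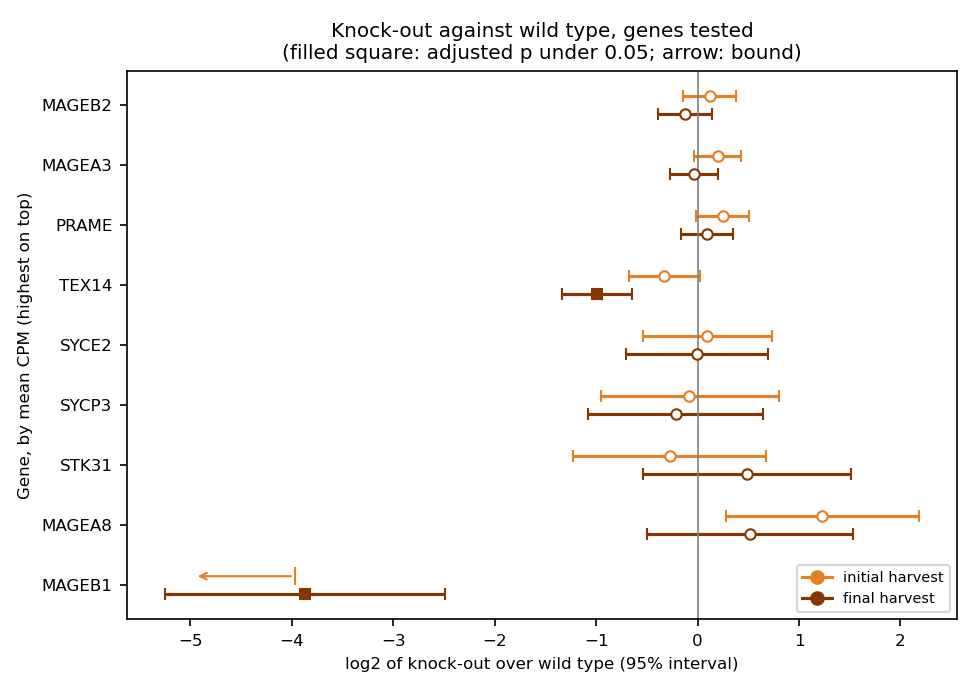
Log2 of the KO-to-WT ratio of the 9 tested genes at the initial (light) and final (dark) harvest with 95% intervals from edgeR, genes ordered by mean CPM, filled squares where the adjusted p was under 0.05. The arrow marks MAGEB1 at the initial harvest as a bound of at least 15.7-fold, since its KO group had 0 counts, and intervals widen toward the genes with few counts.

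The calls among the 9 tested genes of the 38 were read against the share called in the whole table. At the initial harvest 1 of the 9 tested genes was called (11.1%), where 19.9% of all 18289 tested genes were called, and the call was among the lower ones, which made up 11.3% of all. At the final harvest 2 of 9 were called (22.2%), both lower, where 18.5% of all genes were called and 10.2% were called lower. The share of calls among the 9 genes was thus near that of all genes, and with 9 genes it moves by 11.1 points for each call. MAGEB1, called at both harvests, had passed the filter only through its WT libraries. The median log2 fold change of the 9 was 0.09 at the initial harvest and -0.04 at the final one, beside 0.00 over all tested genes at both. At an unadjusted p under 0.05, 2 genes passed at each harvest, MAGEA8 and MAGEB1 at the initial and MAGEB1 and TEX14 at the final one.

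Over the 2 months of culture no tested gene was called in edgeR's quasi-likelihood test. In the WT 0 of 9 were called, beside 6.47% of all genes, with 1 gene (TEX14) at an unadjusted p under 0.05. In the KO 0 of 9 were called, beside 1.48% of all genes, and no gene had an unadjusted p under 0.05. In the interaction of genotype and harvest 0 of 9 were called, beside 1.28% of all genes, with TEX14 again the 1 gene at an unadjusted p under 0.05. DESeq2 also called 0 in each of these 3 comparisons. The WT and KO time comparisons share no library, but the genotype and time comparisons do. The summed level of the 38 genes was 184.5 to 251 CPM in WT initial, 213 to 246 in WT final, 219 to 251 in KO initial and 185 to 233 in KO final, and these ranges overlap.

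The machinery that keeps such genes silent was followed through lists chosen for their function. Of 12 enzymes and cofactors of DNA methylation, DNMT3L was at the floor and 11 were tested. DNMT1, the maintenance methyltransferase, was at 476.8 CPM, with a log2 fold change of -0.01 at the initial harvest and 0.02 at the final one, neither called. DNMT3B, a de novo methyltransferase, had -0.14 and -0.22 (adjusted p 0.264 and 0.0804). Only UHRF2, a relative of the DNMT1 cofactor UHRF1, was called, lower at the initial harvest (-0.53, SE 0.125, adjusted p 0.00622). It was at 77.4, 53.4 and 56.1 CPM in WT initial and 46.5, 38.8 and 43.9 in KO initial. The final libraries were at 61.2, 59.0 and 59.3 CPM in the WT and 48.5, 53.2 and 42.0 in the KO. None was called at the final harvest. The 1 call among 11 tested genes stands beside 19.9% of all genes called at the initial harvest, 11.3% of them lower. At the final harvest 18.5% of all genes were called.

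Of 24 repressors of germline genes (PRC1.6, H3K9 methylation and the HUSH complex), 3 were called at the initial harvest and none at the final harvest. EHMT2, an H3K9 methyltransferase, was lower (-0.34, SE 0.0872, adjusted p 0.00999), as was ATF7IP, a partner of SETDB1 (-0.35, SE 0.104, adjusted p 0.0254). WDR5 was higher (0.22, SE 0.0731, adjusted p 0.0409). Beside these stand the 19.9% and 18.5% of all genes.

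Other germline genes were counted in the same way. Of 72 further X-linked cancer-testis genes, 61 were at the floor, 45 of them with 0 counts, and 4 were tested. MAGEB17 was higher in the KO at the initial harvest, with 79, 72 and 75 counts in WT initial and 148, 97 and 121 in KO initial (0.73, SE 0.177, adjusted p 0.00776), and at the final harvest its difference was 0.32 (adjusted p 0.281). Of 58 further germline genes on autosomes, 28 were at the floor and 20 were tested. NANOS1, a translational repressor of germ cells, was higher in the KO at the initial harvest (95% interval of the ratio 1.48 to 2.72, adjusted p 0.00259). MEIOB, a single-strand DNA binding protein of meiosis, was lower at the final harvest (-1.54, SE 0.382, adjusted p 0.00894). GTSF1, a piRNA pathway factor, was transcribed in every library at a mean of 115.6 CPM and was not called. Of 12 type II MAGE genes, which somatic tissues transcribe broadly, 7 were at 0 and 5 were tested, and TRO was higher in the KO at the final harvest (0.91, SE 0.21, adjusted p 0.00531). MAGED2 was lower in WT final than in WT initial (-0.35, SE 0.0876, adjusted p 0.0225). Among the 20 tested autosomal genes, NANOS1 was the 1 called higher at the start, beside 8.55% of all tested genes. MEIOB was the 1 of these 20 called lower after the culture, beside 10.2%. MAGEB17 was the 1 call among 4 tested genes, and TRO and MAGED2 were each 1 among 5. Lists of 4 or 5 genes are too short to compare with the share in the whole table.

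The CpG content of promoters overlapped between genes at and above the floor. RefSeq windows of 300 bases, 250 before and 50 after a start, were found for 32 of the 38 genes, 48 windows in all, TEX14 not among them. The median window held 13.5 CpG pairs, beside 14 over 35116 windows of all genes. It was 15.5 for the genes above the floor (16 windows) and 13.5 for the genes at the floor (32 windows). DAZL had 33 and 29 CpG pairs in its 2 windows and 0 counts, SYCE2 had 37 and was transcribed at a low level, and MAGEB2 had 21 at the highest level. The E-box CACGTG, searched on both strands, was found in 6 of 48 windows, beside 7.26% of all windows. These belong to BRDT, DAZL, STK31, PAGE1 and PAGE5. The E2F motif GGCGGGA, on both strands, was found in 10 of 48, beside 15.4% of all. These belong to SYCP1, SYCP3, SYCE2, SSX1, SSX4, XAGE1B and SSX2. The windows of BRDT, XAGE1B and SSX2 overlap within each gene and hold the same motif repeatedly, so windows are not independent and the shares cannot be compared closely.

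**Figure D3:**
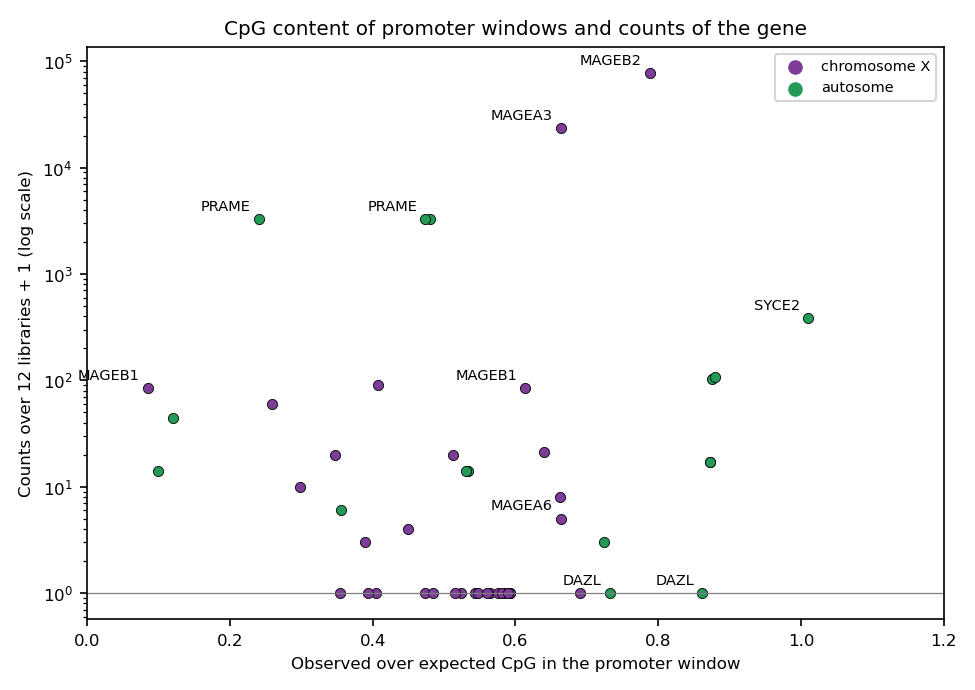
Ratio of observed to expected CpG pairs in each 300-base promoter window (horizontal) against the counts of its gene over 12 libraries plus 1 (vertical, log scale), 1 point per window, coloured by chromosome X or autosome. MAGEA3 and MAGEA6 share the value 0.664 with 23513 and 4 counts. MAGEB1 has a window at 0.0856, which lies inside the exon of MAGEB4, and another at 0.614.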

How the data were processed

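RNA of 12 libraries of HCT116 cells, poly-A selected per the labels, was analysed from the table of counts per gene that the authors deposited. Per the submitters' processing notes, STAR, featureCounts of the Subread package and the hg38 build were used. Their versions, the annotation release, the use of strand and the handling of reads with several positions are not given in the sources used here. Of 60648 genes, 37318 identifiers occur with the same version in GENCODE 29, all with identical coordinates. A further 5 lines, 1 gene broken over several lines, were left out. The depth of 38597809 to 40017561 counts per library sets the level that the floor of 3 counts stands for.

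Genes passing filterByExpr by group (18289) entered 1 model in edgeR 4.0.16 (with limma 3.58.1, under R 4.3.3) after TMM scaling, with a mean for each of 4 groups and robust dispersions. Quasi-likelihood tests of 5 comparisons were adjusted over all genes tested (Benjamini-Hochberg), and a gene was called at an adjusted p under 0.05. The script was tested on simulated data. Levels are CPM, and 95% intervals of ratios come from the fitted log2 fold change and its standard error. These include the spread between replicates. The interval of a ratio of few counts is an exact binomial one, and it and the floors cover counting error only.

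The members and lists were chosen with earlier results of these data known. Every member is accounted for. Full statistics go to called genes and to the 5 uncalled tested genes of highest CPM, and list genes are named by smallest adjusted p. Values of MAGEA8, STK31, DNMT1, DNMT3B and GTSF1 were given in addition, after their values were seen. Shared words were counted in GENCODE 29 transcripts. Promoters came from RefSeq (GRCh38.p14) and were aligned with a Smith-Waterman script.

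Alternatives were RLE and upper quartile factors, no filter, at least 10 counts in 3 libraries, a replicate block, near-identical copies summed, dispersions not robust, only the 2 groups compared, DESeq2 1.42.0, and each library left out.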

Additional observations from a re-analysis of the deposited data

Results flagged for a closer look

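LIN28A, an RNA-binding protein of pluripotent and germ cells from the marker list, is singled out because it was called in the interaction test given below. It had 50, 48 and 46 counts in WT initial, 13, 19 and 10 in WT final, 55, 33 and 62 in KO initial, and 58, 52 and 50 in KO final. The WT final libraries lay below all others, and the interaction of genotype and harvest was 1.77 on the log2 scale (SE 0.36, adjusted p 0.0201, edgeR's quasi-likelihood test). LIN28A was picked by that test, which called 1.28% of all tested genes, so its adjusted p is no separate support. No cancer-testis gene of the 38 passed that test. Groups of 3 libraries were not examined for outlying libraries.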

How the results depend on the processing

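The calls among the 38 genes moved in 3 settings. At the initial harvest the number called was 1 to 2 over the fits that left out 1 library, the second being MAGEA8 without KO final replicate 2, and 1 in the other 9 settings. At the final harvest it was 2 in each fit that left out a library, and 1 (TEX14) in the fit of only the 2 groups compared, where MAGEB1 did not pass the filter and was not tested. In the WT over time it was 0 to 1 over the fits without 1 library, the 1 being TEX14 without WT initial replicate 1. In the KO over time and in the interaction it was 0 throughout. No direction of a called gene reversed. MAGEB1 had adjusted p from 1.17e-10 to 0.000525 at the initial and 7.76e-06 to 0.00378 at the final harvest in the other settings that tested it, and TEX14 had a log2 fold change of -1.07 to -0.86 at the final harvest in all 21.

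With the replicate block the numbers called were 1, 2, 0, 0 and 0, as without it. Deviations of same-numbered libraries correlated from -0.34 to 0.218 and those of others from -0.402 to 0.362. No pairing by number is seen in these ranges, but ranges over all groups cannot exclude a pairing between some of them.

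The shares of all genes called are less stable. The number called at the initial harvest was 3635, and 2423 (without KO initial replicate 2) to 4615 (without WT initial replicate 2) over the settings. At the final harvest it was 3391, and 2561 to 3895. In the WT over time it was 1183, and 578 to 1486 over the settings. In the KO over time it was 270, and 94 to 728, and in the interaction 235, and 124 to 458. MAGEA8 at the final harvest had a log2 fold change of 0.52, and -0.02 without KO final replicate 2. For SYCP3 and STK31, with at most 13 counts in a library, the intervals of the KO-to-WT ratio reached from 0.428 to 2.86. Their counts do not tell apart ratios within each interval.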

Other observations

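MAGEB6, an X-linked cancer-testis gene outside the 38, is named here after its values were seen. It had 0, 1 and 2 counts in WT initial, 1, 1 and 1 in WT final, 11, 8 and 7 in KO initial, and 4, 1 and 2 in KO final. All KO initial libraries lay above all WT libraries, and the KO final libraries overlapped the WT final ones. It did not pass the filter on low counts. In the fit without that filter its log2 fold change at the initial harvest was 2.99 (SE 0.774, adjusted p 0.00211, edgeR's quasi-likelihood test).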
